A study of Drosophila melanogaster with 6 samples.

Results

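The genes described here are 9 members of the Hippo growth-control pathway of Drosophila melanogaster, and the data are the positions at which open chromatin was called around them. They are the core kinase genes hpo and wts, the nuclear effector genes yki and sd, the upstream regulator genes ex and kibra, the cadherin genes ft and ds, and the growth target Diap1. The members were chosen by name, as 9 of 13962 protein-coding genes, and their data are the ATAC-seq peaks that overlap the gene body or the 2 kb on either side of it, called the locus here. The loci held 22, 32 and 28 peaks in control samples A, B and C and 21, 33 and 25 peaks in H1 RNAi samples A, B and C. Merging overlapping peaks of the 6 samples gave 32 regions in these loci, of 11854 regions in all.

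ATAC-seq uses the Tn5 transposase to cut and tag DNA where chromatin is open. The cells were midgut progenitors, a mixture of intestinal stem cells and enteroblasts, sorted as GFP-positive cells from female flies. Control flies carried esgts and UAS-GFP, a temperature-sensitive escargot driver that switches on GFP in progenitors, and the other flies carried in addition 1 transgene, UAS-H1 RNAi 1, against the linker histone H1. Flies of 3 days of age spent 2 days at 18 °C and, on poor food, another 4 days at 29 °C, the temperature that releases the driver in both groups. Each group had 3 replicates, A, B and C, each from 70 pooled guts that gave 50000 to 100000 cells. Because stem cells and enteroblasts were sorted together, a change in the accessibility of one cell type and a change in the proportion of the types cannot be told apart. The comparison asks where accessibility at these loci differs when H1 is depleted.

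In the Hippo pathway the kinase Hippo activates the kinase Warts, and Warts phosphorylates the coactivator Yorkie (yki) and keeps it out of the nucleus. Unphosphorylated Yorkie binds DNA through the TEAD-family factor Scalloped (sd) and switches on genes for growth and survival, among them Diap1, an inhibitor of apoptosis. Expanded and Kibra act upstream of the kinases and are themselves products of Yorkie target genes, which closes a feedback loop, and the large cadherins Fat and Dachsous form a receptor and ligand pair at the cell surface. In the fly midgut the pathway is known for limiting the division of stem cells.

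The lists, which the authors called separately for each sample, differed in length and extent. They held 6142 to 10872 peaks in controls and 6564 to 9827 in H1 RNAi samples, and the peaks covered 2.75 to 6.92 Mb and 3.04 to 3.91 Mb. Control A had the smallest covered length of the 6 and controls B (6.92 Mb) and C (5.96 Mb) the largest. Covered length at the loci moved with the extent of the whole list, and its part in each result was not tested. Read totals were not used here, so depth is unknown. Of 6 progenitor marker genes, 6 in each control and 5 to 6 in the H1 RNAi samples had a peak within 500 bp of a gene end, and Delta was the one missing in 2 H1 RNAi samples. For other cell types the counts were 0 to 2 of 5 enteroendocrine markers in both groups (Tk, AstA and AstC in no sample). Of 7 enterocyte markers, 3 to 5 in controls and 4 in H1 RNAi samples had one (nub, Amy-p and Jon65Ai in all 6 samples, betaTry in none). The counts were 1 to 2 of 4 visceral muscle markers in both groups (how in all 6 samples, Mlc2 in none), and 0 to 2 and 0 of 3 hemocyte markers (srp in none). Their part in the results was not tested. An open gene end is not expression. None of the 23 annotated His1 genes had a gene-end peak in any sample. Peak lists do not measure transcript or protein, so the depletion of H1 was not checked here. Groups of 3 cannot give an exact permutation p below 0.1, and groups are therefore described as apart where no value of one group reaches the range of the other.

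Accessibility was called at 8 of the 9 loci in all 6 samples, and ds was the exception. Of the 32 member regions, 21 (65.6%) had a peak in all 6 samples, against 37.8% of the 10597 regions in the loci of protein-coding genes. A further 11 regions had a peak in fewer samples, and no region was called in all samples of one group and in none of the other. The summit of the strongest peak lay inside the gene body for 21 regions and in a flank for 11. The gene table used gives no strand, transcripts or exons, so gene ends are named by coordinate and exons and introns are not told apart.

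**Figure D1:**
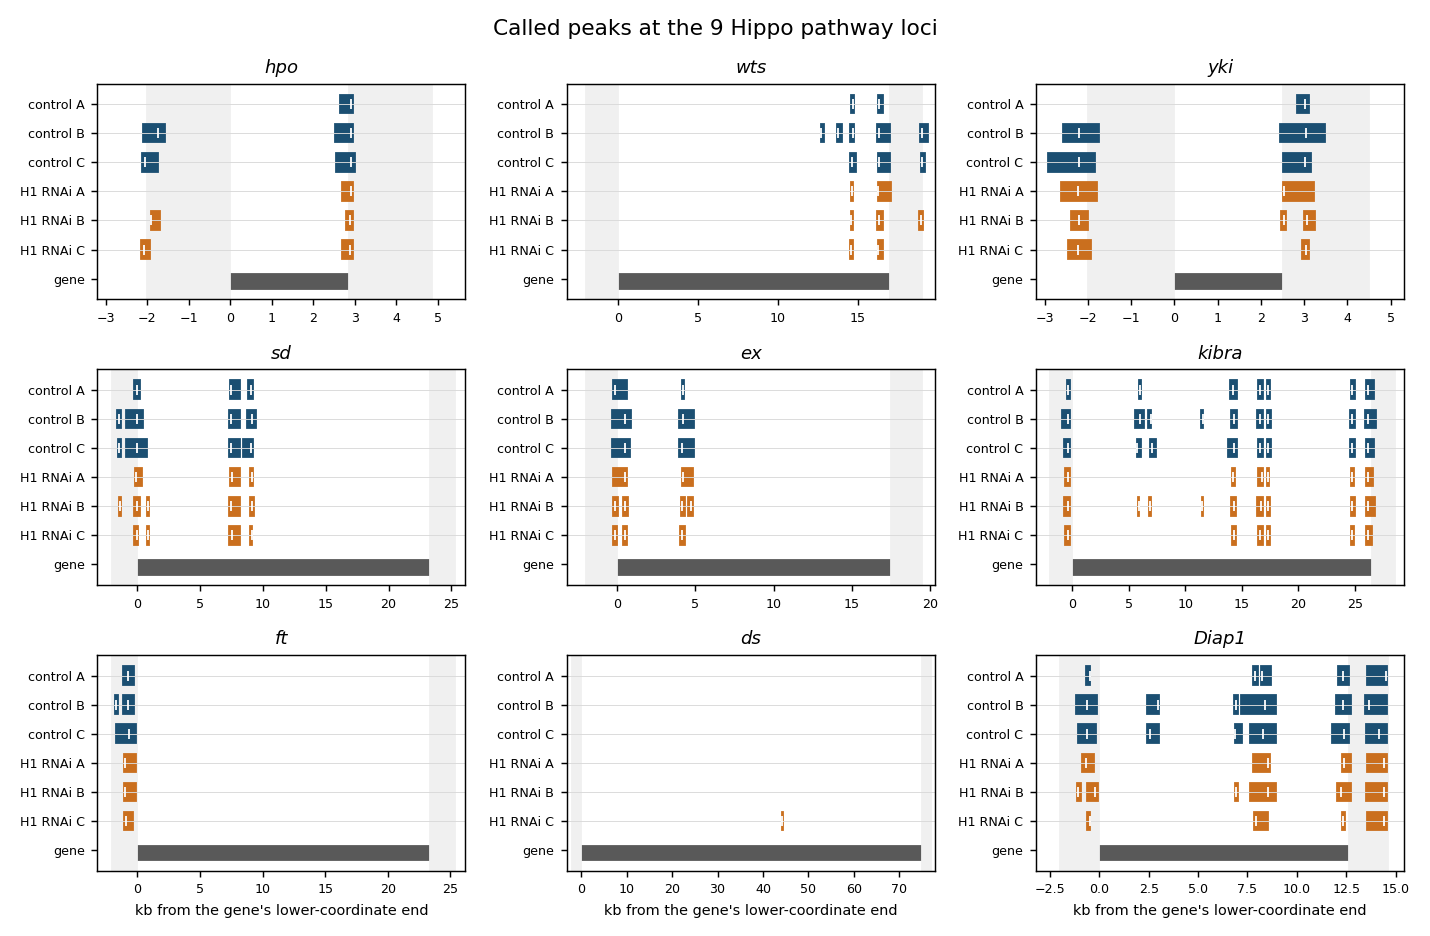
Called peaks at the 9 loci, one panel per gene, with the position in kb from the gene's lower-coordinate end on the horizontal axis and one row per sample (blue, control; orange, H1 RNAi). Bars are peaks, white ticks are summits, the grey bar is the gene and the shaded bands are the 2 kb flanks. At least 1 position recurs in all 6 rows at every locus but ds, where 1 sample has 1 peak. Other positions are missing from some rows.

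The core kinase genes had their recurrent peaks in or near the higher-coordinate part of each gene. For hpo (gene 37247, dm6 chromosome 2R, 19493996 to 19496856), which encodes the Ste20-family kinase at the top of the cascade, the one region called in all 6 samples spanned 19496515 to 19496993, over the higher-coordinate end of the gene. Its summits fell within 28 bp of each other across the 6 samples. The peaks in this region covered 326, 450 and 461 bp in controls A, B and C and 283, 167 and 259 bp in H1 RNAi A, B and C, so every H1 RNAi peak was narrower than every control peak (exact permutation p = 0.1). The second region of the locus, 19491849 to 19492432, lay at the neighbouring genes Rep and Oseg6 and was called in 2 controls and 2 H1 RNAi samples.

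Over the whole hpo locus, peaks covered 326, 887 and 715 bp in controls and 283, 402 and 318 bp in H1 RNAi samples. Control A lay inside the H1 RNAi range, as it did at each of the 9 loci. The means were 643 ± 287 bp and 334 ± 61.2 bp (mean ± SD of 3 samples; p = 0.2 by the exact permutation test, adjusted p = 0.797 over all tested genes). When the covered length was divided by that of the whole list, hpo was the 1 member of 9 with groups apart, against 8.41% of all tested loci. It then stood at 119, 128 and 120 bp per Mb in controls A, B and C and at 84.4, 103 and 105 bp per Mb in the H1 RNAi samples.

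For wts (gene 43651, chromosome 3R, 30789625 to 30806619), which encodes the kinase that phosphorylates Yorkie, 4 of 5 regions lay inside the gene, all in its higher-coordinate part. The broadest, 30805832 to 30806669, had a peak in all 6 samples that covered 340, 807 and 751 bp in controls and 798, 342 and 322 bp in H1 RNAi samples. The groups overlapped there, and the gene dj-1beta has an end less than 500 bp away. The other region shared by all samples, 30804111 to 30804496, was narrower in H1 RNAi, with 168, 129 and 150 bp against 186, 278 and 361 bp, and the groups were apart.

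The summit in this wts region was also apart between the groups, as in 13.3% of all regions called in all 6 samples. It stood at 30804343, 30804306 and 30804283 in controls A, B and C and at 30804226, 30804220 and 30804203 in the H1 RNAi samples, so all 3 H1 RNAi summits lay at lower coordinates than all 3 control summits. The difference of the means was −94.3 bp (exact permutation p = 0.1, adjusted p = 0.753 over regions called in all 6 samples). In control A this peak stood at the 2.83rd percentile of its list by the authors' q-value, near the weak end. Control B, the longest list, alone had peaks at 30802294 to 30802501 and at 30803312 to 30803628, and held 5 wts peaks against 2 to 3 in each other sample. The wts locus as a whole was covered over 526, 1739 and 1175 bp in controls and 966, 620 and 472 bp in H1 RNAi samples (1147 ± 607 and 686 ± 254 bp, mean ± SD of 3 samples; p = 0.3, exact permutation).

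The effector genes differed in layout. The coactivator gene yki (gene 37851, chromosome 2R, 24065975 to 24068485) is short and had both of its regions outside the gene body by summit. The region 24068419 to 24069469 spans its higher-coordinate end and the neighbouring end of Gpat4, and was called in all 6 samples, over 286, 1051 and 653 bp in controls and 715, 373 and 153 bp in H1 RNAi samples. Its strongest summit lay beyond the start of Gpat4 in 4 samples (24068993, 24069029 and 24068996 in controls, 24069020 in H1 RNAi C) and close to the end of yki in H1 RNAi A and B (24068517 and 24068510). H1 RNAi B had 2 separate peaks there where each control had 1.

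The other yki region, 24063057 to 24064233, has its summits over Rap2l and more than 2 kb from yki, so only the edges of its peaks entered the locus. In control A the peak ended 128 bp outside, so the region is among the 21 called in all 6 samples although only 5 of them contributed a peak to the locus. Locus coverage of yki was 286, 1310 and 813 bp in controls and 935, 386 and 231 bp in H1 RNAi samples. The means, 803 ± 512 and 517 ± 370 bp (± SD of 3 samples; p = 0.6, exact permutation), differed by less than the spread within either group.

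The DNA-binding partner gene sd (gene 32536, chromosome X, 15804370 to 15827682) held the member region that ranked highest in every list. The region 15811635 to 15812536, in the gene body and 7492 bp from the lower-coordinate end, ranked at the 92.5th to 99.8th percentile of each list by the authors' q-value. It covered 800, 890 and 839 bp in controls and 815, 851 and 815 bp in H1 RNAi samples, with all summits within 61 bp. The extent was nearly the same in all 6, and the groups overlapped.

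A second sd region, 15812807 to 15813774, is next to it and was narrower in H1 RNAi, at 213, 290 and 178 bp against 458, 717 and 759 bp in controls, with the groups apart (exact permutation p = 0.1). Its summits stayed within 59 bp of each other. The region at the lower-coordinate end of sd, 15803485 to 15805111, reaches into PGRP-LE and covered 502, 1302 and 1627 bp in controls and 551, 471 and 323 bp in H1 RNAi samples. Here control A lay within the H1 RNAi range. A small region 15805127 to 15805287 was called in H1 RNAi B and C and in no control, at or below the 8.32nd percentile of those lists. The control C peak of the region at the lower-coordinate end reached 15805111, just short of this small region. The sd locus was covered over 1760, 3231 and 3443 bp in controls and 1579, 1890 and 1472 bp in H1 RNAi samples (2811 ± 917 and 1647 ± 217 bp, mean ± SD of 3 samples; p = 0.2, exact permutation).

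Of the upstream regulators, ex (gene 33218, chromosome 2L, 431227 to 448701), which encodes a FERM-domain protein of the apical membrane, had 2 regions, both called in all 6 samples. The region 430928 to 432148 at the lower-coordinate end was a single peak in all 3 controls and in H1 RNAi A, and was divided into 2 peaks in H1 RNAi B and C. It covered 892, 1205 and 1140 bp in controls and 872, 686 and 492 bp in H1 RNAi samples, with the groups apart. The strongest summit lay between 431744 and 431771 in 5 samples and at 431094, outside the gene, in control A.

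The second ex region, 435179 to 436153, lies in the gene body and covered 161, 934 and 975 bp in controls and 721, 535 and 307 bp in H1 RNAi samples. Control A was lowest and the other controls highest. H1 RNAi B again had 2 peaks. The number of peaks at ex was 2 in every control and 2, 4 and 3 in H1 RNAi A, B and C, and without H1 RNAi A the groups were apart (1 member of 9, against 3.24% of tested loci). The covered length of ex was 1053, 2139 and 2115 bp in controls and 1593, 1221 and 799 bp in H1 RNAi samples, with means of 1769 ± 620 bp in controls and 1204 ± 397 bp in H1 RNAi samples (mean ± SD of 3 samples; p = 0.3, exact permutation). Per Mb of list the means were 349 and 350 bp.

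The kibra locus (gene 41783, chromosome 3R, 14697689 to 14724261), for a WW-domain partner of Expanded, had more regions than any other member, 9, of which 6 were called in all samples. The strongest, 14723611 to 14724549, overlaps the higher-coordinate end of the gene and ranked at the 84.3rd to 98.8th percentile of each list, with summits within 30 bp. It covered 685, 939 and 690 bp in controls and 608, 861 and 499 bp in H1 RNAi samples. Close to the opposite end, the region 14696750 to 14697471 overlaps the end of Meltrin, and inside the gene a pair of neighbouring regions, 14714057 to 14714602 and 14714906 to 14715245, was called in every sample.

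The first of that pair had nearly the same extent in both groups (411, 527 and 467 bp in controls, 421, 525 and 467 bp in H1 RNAi samples). It was the 1 shared member region of 21 whose mean was not lower in H1 RNAi. Its summit moved between 2 places within the region, from 14714280 to 14714328 in the controls and H1 RNAi C and at 14714452 and 14714437 in H1 RNAi A and B. In 2 other gene-body regions the groups were apart in covered length. The region 14711471 to 14712294 covered 566, 573 and 767 bp in controls and 225, 428 and 381 bp in H1 RNAi samples, and 14722262 to 14722740 covered 397, 479 and 433 bp and 305, 368 and 287 bp.

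The kibra region with the most uneven calls between the groups, 14703259 to 14704008, had a peak in 3 controls and in H1 RNAi B, where it stood at the 1.44th percentile of the list. Its neighbours at 14704439 to 14705138 and 14709104 to 14709302 were called in controls B and C and H1 RNAi B, and in control B and H1 RNAi B. Peak numbers at kibra were 7, 9 and 8 in controls and 6, 9 and 6 in H1 RNAi samples (exact permutation p = 0.6). Without H1 RNAi B, kibra and Diap1 had fewer peaks in both remaining H1 RNAi samples than in any control (2 members of 9, against 3.83% of tested loci). The covered length of the locus was 2754, 4768 and 4205 bp in controls and 2201, 3453 and 2345 bp in H1 RNAi samples (3909 ± 1039 and 2666 ± 685 bp, mean ± SD of 3 samples; p = 0.2, exact permutation).

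The cadherin genes had few called regions, 1 each. The gene for Fat, ft (gene 33627, chromosome 2L, 4198404 to 4221796), had a single region, 4196619 to 4198307, in the flank over the end of Naprt, and none of the 6 samples had a peak elsewhere in the locus. It covered 930, 1119 and 1579 bp in controls and 980, 953 and 781 bp in H1 RNAi samples (1209 ± 334 and 905 ± 108 bp, mean ± SD of 3 samples; p = 0.3, exact permutation). Its strongest summit was at 4197624, 4197652 and 4197743 in controls A, B and C and at 4197456, 4197438 and 4197463 in H1 RNAi samples. All 3 H1 RNAi summits lay further from ft than the control summits, by −221 bp between the means (exact permutation p = 0.1, adjusted p = 0.753).

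The gene for Dachsous, ds (gene 33245, chromosome 2L, 640013 to 714983), spans 74971 bp, and 1 peak of 129 bp was called in the whole locus. It lay at 684187 to 684315 in H1 RNAi C, at the 2.27th percentile of that list. No other sample had a peak, and none had one within 500 bp of an end of ds. By the mean share covered over 6 samples, 0.0272%, ds was at the 0.141st percentile of the tested loci. Some other genes of this size also had sparse calls, but they were a minority. Of 158 protein-coding loci at least as long as that of ds, 28 had no peak in 5 or more of the 6 samples, and the median locus of this size was covered over 1.66% of its length.

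The growth target Diap1 (gene 39753, chromosome 3L, 16038410 to 16051034), which encodes a caspase-binding inhibitor of apoptosis, was the most densely covered member. Peaks covered 15.3, 33.0 and 30.6% of the locus in controls A, B and C and 17.7, 24.0 and 12.4% in H1 RNAi A, B and C. Its mean over the 6 samples, 22.2%, was at the 98.0th percentile of the tested loci. That share includes a flank region over the end of the neighbouring gene Mbs. In each sample this region gave 1003 to 1115 bp, of 2068 to 5490 bp covered in the whole locus. The broadest region, 16045245 to 16047368 in the gene body, covered 760, 1913 and 1650 bp in controls and 873, 1502 and 730 bp in H1 RNAi samples. The strongest summit moved over 1602 bp within it, from 16045331 in H1 RNAi B to 16046933 in H1 RNAi A.

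The region 16051874 to 16052988, in the flank that Diap1 shares with Mbs, was nearly even, with 1014, 1115 and 1040 bp in controls and 1003, 1046 and 1005 bp in H1 RNAi samples. At the higher-coordinate end of Diap1, the region 16050203 to 16051171 covered 559, 786 and 870 bp and 449, 714 and 166 bp. The flank towards CG5895 held 16037244 to 16038319, which was covered over 214, 1070 and 928 bp in controls and 616, 723 and 167 bp in H1 RNAi samples. A region at 16040816 to 16041423 was called in controls B and C alone, at the 8.91st and 7.04th percentile of their lists. Over the locus, Diap1 was covered over 2547, 5490 and 5094 bp in controls and 2941, 3985 and 2068 bp in H1 RNAi samples (4377 ± 1597 and 2998 ± 960 bp, mean ± SD of 3 samples; p = 0.3, exact permutation).

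**Figure D2:**
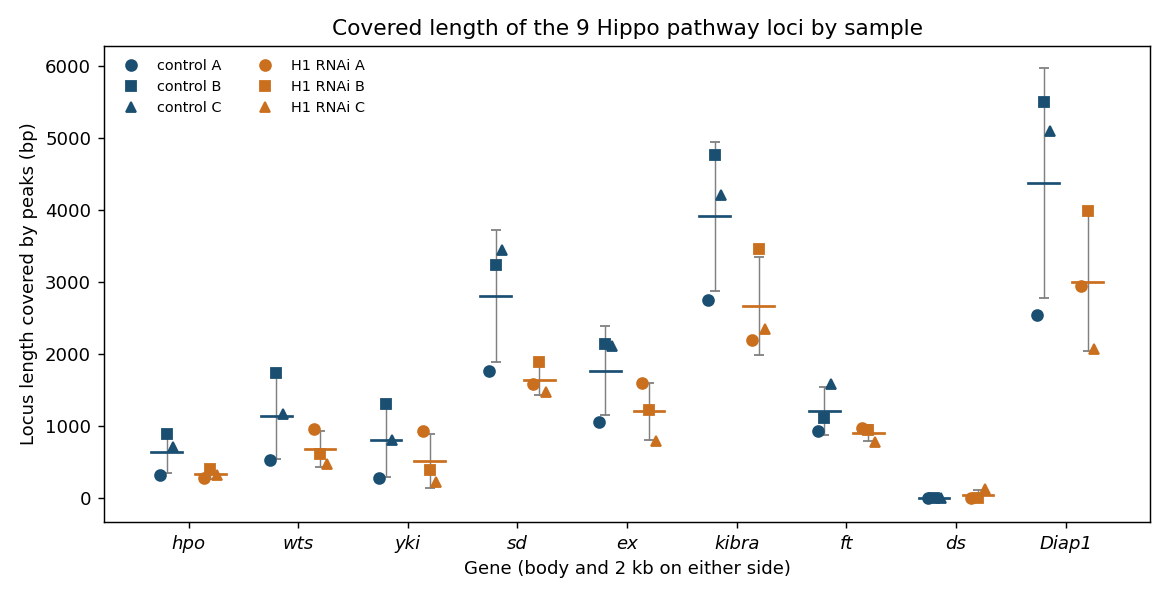
Length of each locus covered by peaks, in bp, for each sample (points), with the mean of each group as a coloured line and the SD over 3 samples as grey bars. Controls B and C are above the H1 RNAi samples at hpo, wts, sd, ex, kibra, ft and Diap1, while control A lies within the H1 RNAi range at all 9 loci.

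Set side by side, the members had lower mean covered length in H1 RNAi samples at 8 of 9 loci, with a median difference of −461 bp, but at 4 of 9 per Mb of list, and at no locus were the groups apart in bp. The same direction held for 90.8% of the 9928 protein-coding loci with a peak in any sample, whose median difference was −197 bp, and the groups were apart at 5.7% of them. These medians in bp are not like for like, because most members were more covered than the median locus. Control means were 643 to 4377 bp at all members but ds. The median tested locus was covered over 217, 847 and 679 bp in controls A, B and C. Per Mb of list, 53.1% of tested loci had the lower mean. In peak number 0 of 9 members had groups apart, against 0.967% of tested loci, and 4 members had a lower mean, 4 a higher mean and 1 the same. By the exact permutation test no gene reached an unadjusted p under 0.05, which this design does not allow, and the lowest adjusted p was 0.797 for covered length and 1 for peak number. Without control A the groups were apart in covered length at 7 of 9 members (all but yki and ds) and at 62.5% of all tested loci. Without H1 RNAi B they were apart at 3 members (hpo, sd and kibra), against 14.4%.

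Read by role, all 5 classes had a lower mean covered share in H1 RNAi samples, on the scale that is not divided by list extent. On that scale the mean was also lower at 90.8% of all tested loci. Among the members only ds had the higher mean (0 bp in controls and 43 bp in H1 RNAi samples). The gene ex counts both as an upstream regulator and as a growth target. Core kinase loci (hpo and wts) were covered over 6.42 ± 3.20% of their length in controls and 3.66 ± 0.824% in H1 RNAi samples, and the effectors (yki and sd) over 10.7 ± 4.04% and 6.40 ± 1.23%. The upstream regulators ex and kibra stood at 10.9 ± 3.16% and 7.44 ± 1.48%, and the growth targets Diap1 and ex at 16.1 ± 5.81% and 11.03 ± 3.16%. The cadherins ft and ds stood at 1.14 ± 0.314% and 0.891 ± 0.0332% (± SD of 3 samples throughout). All of the cadherin share came from the flank region over the end of Naprt and from 1 peak at ds. In the effector share, both yki regions lay in a flank by strongest summit. These shares have no test of their own, and in each class control A lay within the H1 RNAi range.

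**Figure D3:**
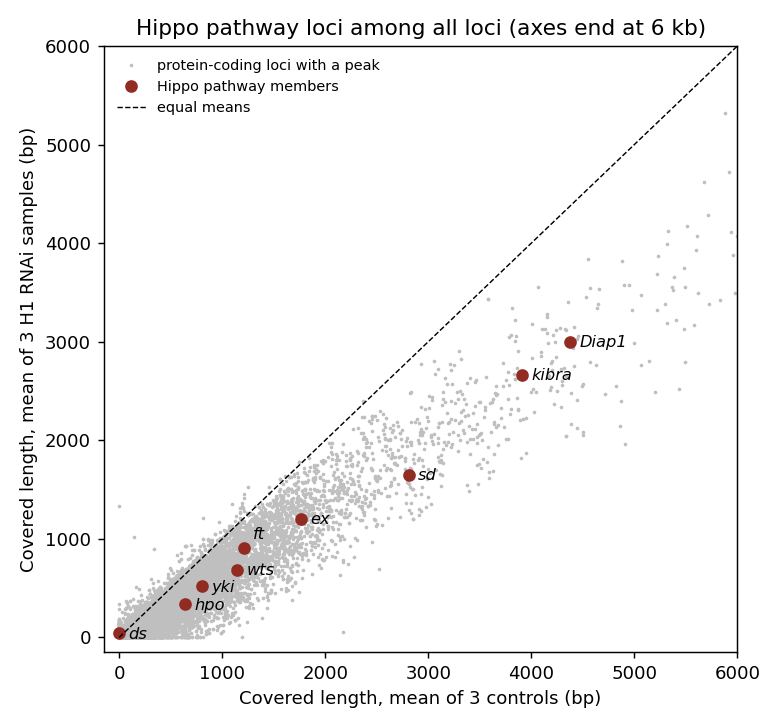
Mean covered length in the 3 controls (horizontal, bp) and the 3 H1 RNAi samples (vertical, bp) for protein-coding loci with a peak (grey points) and the 9 members (red), with both axes ended at 6 kb and the dashed line marking equal means. The members lie within the grey cloud, 8 of 9 below the dashed line, as do 90.8% of all loci (4 of 9 and 53.1% when divided by list extent).

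Per length, the order of the loci from high to low was Diap1, kibra, yki, sd, hpo, ex, wts, ft and ds, by the mean percentage covered over 6 samples. These percentages include the flanks, which members share with neighbouring genes. At hpo, yki and ft every region had its strongest summit in a flank. The regions of yki reach over Rap2l and Gpat4, and that of ft over Naprt. The means were 22.2, 10.8, 10.1, 8.16, 7.12, 6.92, 4.36, 3.86 and 0.0272%, and the median tested locus stood at 5.92%. Diap1 exceeded kibra, ex exceeded wts and ft exceeded ds in 6 of 6 samples. The other neighbours in this order changed places between samples (kibra above yki in 4 of 6, yki above sd in 2, sd above hpo in 5, hpo above ex in 4 and wts above ft in 2). Their ranges overlapped, so their order is not firm.

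Region by region, the 11 member regions not shared by all samples were mostly called in the longer lists. Control B had a peak in 9 of them, H1 RNAi B in 7, control C in 6, H1 RNAi C in 3, control A in 1 and H1 RNAi A in 0. Among all 7488 such regions the percentages were 81.0, 55.3, 55.0, 27.8, 15.7 and 23.4% in the same order of samples. The highest percentile that any of the 11 reached in a list was the 56.0th, for a region beyond wts at cindr and dj-1beta. Called in every sample of one group and none of the other were 0 of 32 member regions, against 0.801% of all regions. Leaving out control A gave 1 (Diap1, 16040816 to 16041423, against 5.59% of all regions), leaving out H1 RNAi A gave 1 (sd, 15805127 to 15805287, against 1.54%) and leaving out H1 RNAi B gave 1 (kibra, 14703259 to 14704008, against 2.18%). With 2 of 3 samples of one group and 0 of the other, the Diap1 and sd regions counted, 2 of 32, against 6.7%.

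**Figure D4:**
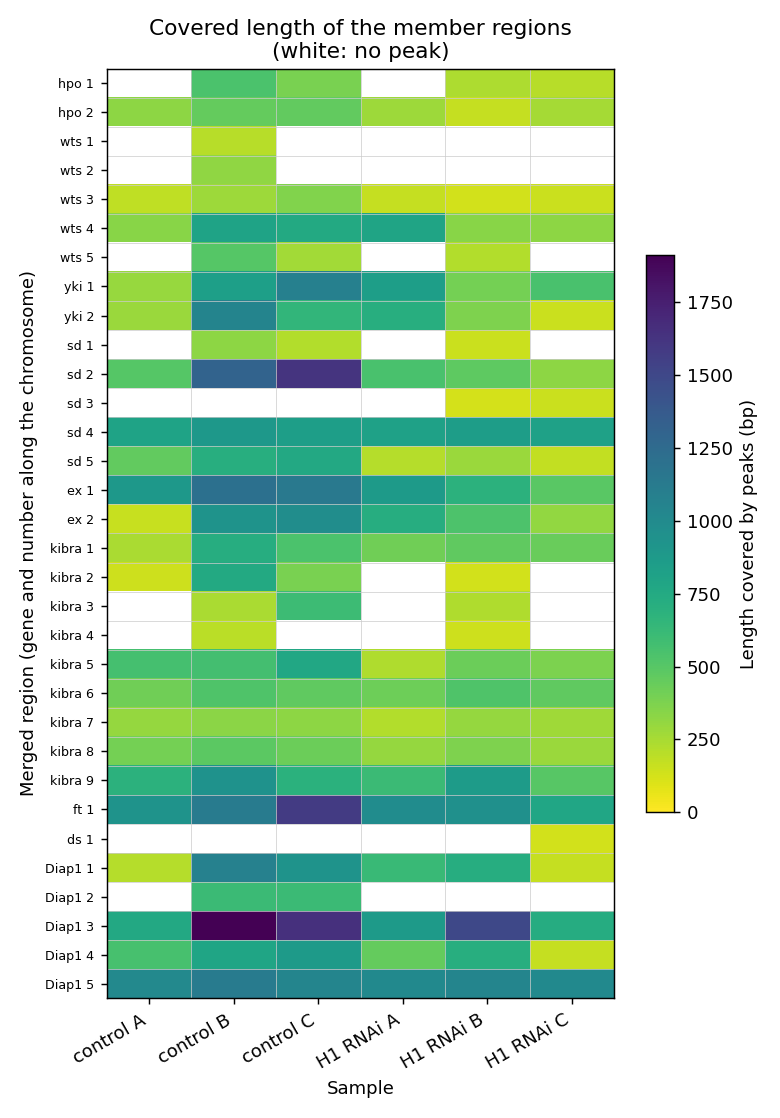
Covered length in bp (colour) of each of the 32 merged regions (rows, numbered along the chromosome within each gene) in each sample (columns), with white where no peak was called. The 21 regions without a white cell include the even sd 4 and Diap1 5, and no row is filled in all 3 samples of one group and white in all 3 of the other.

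In the 21 regions called in all samples, the covered length was lower in H1 RNAi with the groups apart in 6 (28.6%), against 14.5% of the 4366 such regions of the genome. They are the region at the end of hpo, the narrower wts region, the second sd region of the gene body, the region at the end of ex and the 2 kibra regions named above. None was higher with groups apart. Mean covered length was lower in 20 of the 21 and in 93.2% of all 4366, and the median differences were −169 bp for the members and −150 bp for all. No adjusted p was below 0.626. Without control A, 14 member regions were lower with groups apart, against 74.7% of all. Without H1 RNAi B it was 10, against 26.4%.

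Summit positions were set beside those of all shared regions. The range over the 6 samples had a median of 109 bp in member regions and 134 bp in all regions called in 6 samples. It was at most 100 bp in 10 of 21 member regions (47.6%, against 38.6% of all) and at least 300 bp in 6 (28.6%, against 20.98%). Those 6 were the region spanning the higher-coordinate end of yki, the region at the end of ex, the flank region of ft over Naprt and 3 regions of Diap1. The groups' summits were apart in 2 of 21 member regions, in wts and at ft, or 9.52%, against 13.3% of all. Leaving out 1 sample at a time gave 4 to 6 member regions, and 22.7 to 24.1% of all.

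**Figure D5:**
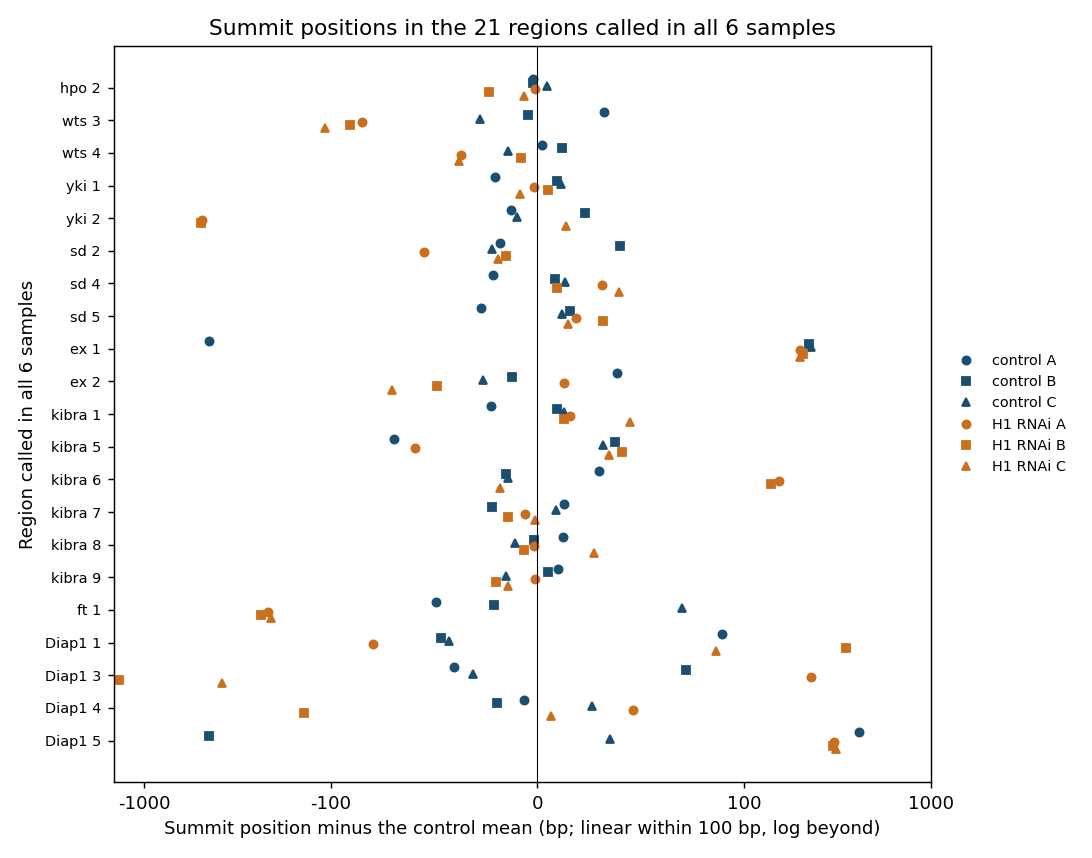
Distance of each sample's strongest summit from the mean of the controls (bp; linear within 100 bp and logarithmic beyond) in the 21 regions called in all 6 samples. Summits lie within 100 bp of each other in 10 regions, those of wts 3 and ft 1 are separated by group, and those of yki 2, ex 1 and Diap1 1, 3 and 5 are spread over 429 to 1602 bp.

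A wider list of 57 genes of the pathway, all matched in the gene table, had groups apart in covered length at 5 genes, all lower in H1 RNAi, among 53 with a peak (9.43%, against 5.58% of all tested loci). Its median difference over the 57 was −323 bp, and the mean was lower at 47, all among the 53 with a peak. Over all tested loci the median difference was −197 bp, and the mean was lower at 90.8%. These differences in bp were not scaled to the covered length of each locus. The 5 were the chromatin factor gene Trl (3018 ± 733 and 1673 ± 363 bp), the polarity kinase gene aPKC (2207 ± 615 and 1453 ± 188 bp), the salt-inducible kinase gene Sik3 (1441 ± 483 and 887 ± 169 bp), the cytokine gene upd3 (2660 ± 270 and 2152 ± 99.8 bp) and the patterning factor gene tsh (806 ± 102 and 615 ± 44.8 bp; controls and H1 RNAi, ± SD of 3 samples, p = 0.1 by exact permutation and adjusted p = 0.797 for each). Relative to the covered length of the whole list, 0 of the 57 were lower with groups apart, against 3.72% of all tested loci. On that scale 7 were higher, 13.2% of the 53 with a peak, against 4.69% of all tested loci. Those 7 were dlg1, jub, Patj, Strip, dlp, hth and InR, none of them among the 5.

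By role, and among genes with a peak, the groups were apart in covered length, with H1 RNAi lower, at 0 of 7 core and scaffold genes such as sav and mats, 0 of 6 genes of the Fat and Dachsous branch, 2 of 15 apical and junction regulators (aPKC and Sik3), 0 of 4 STRIPAK phosphatase genes, 2 of 10 nuclear partners (Trl and tsh) and 1 of 11 targets (upd3). The share over all tested loci was 5.58%. The cytokine gene upd3 is a known mediator of stem cell proliferation in the midgut. Its locus held 2363, 2726 and 2891 bp of peaks in controls and 2247, 2160 and 2048 bp in H1 RNAi samples. Four-jointed (fj), a kinase gene of the Fat and Dachsous branch, had no peak in any sample. The genes Ser, upd1 and Schip1 also had none.

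The genes most like each member were found by the distance between covered lengths over the 6 samples, among protein-coding genes outside the pathway lists. For Diap1 the nearest was eIF5B, with 2813, 5632 and 4784 bp in controls and 2851, 3452 and 1954 bp in H1 RNAi samples, a distance of 702 bp. The nearest to kibra was Gmap (440 bp), to sd sog (390 bp), to ex Ack (214 bp), to ft MSBP (216 bp), to wts SMSr (175 bp), to yki Bin1 (227 bp) and to hpo Rpt4 (70.5 bp). The long gene Pzl had the values of ds exactly, 0 bp in 5 samples and 129 bp in H1 RNAi C. For hpo and yki a second gene was equally near.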

How the data were processed

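The assay was ATAC-seq on 6 samples, 3 control and 3 H1 RNAi, grouped by title. Reads were handled with Trim Galore, Bowtie2, Picard and MACS2 on build dm6, per the submitters' processing notes. No order, version, setting or Tn5 read shift is stated in the sources used here. The authors deposited 1 narrowPeak list per sample. Its columns are peak coordinates and summits (other units), an integer score, a fold enrichment (ratio), and −log10 p-values and q-values from the authors' peak caller. Only coordinates, summits and −log10 q (for ranks, filters and the strongest peak) were used, with fold ordering ties. Heights were not compared between samples, and whether a peak is called, and how wide, depends on threshold and depth.

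Gene positions were taken from RefSeq's gene table for Release 6 plus ISO1 MT (1-based). Peak number and covered length were computed for every protein-coding locus. Group means were compared by an exact two-sided permutation test with Benjamini-Hochberg adjustment over all 9928 loci with a peak (over all regions called in 6 samples for regions). Regions are peaks of the 6 lists merged at 1 bp of overlap. Covered length per region and per Mb of list, and the alternatives for regions and summits, were added after seeing the data. Python 3.11.15, NumPy 2.4.6, pandas 2.3.3 and Matplotlib 3.10.9 were used, and the code was tested on simulated lists. The members, lists, measures and rules were chosen with earlier results of these data known. Named genes were the members, wider-list genes with groups apart in covered length, and the nearest gene to each member by Euclidean distance; the 7 genes higher per Mb and those without peaks were named after their values were seen. A motif search was planned and not run, and sequence was not used here. Each replicate is its own set of 70 guts per the labels, and p-values measure the spread between these samples. Alternatives kept peaks of −log10 q 10 or more, cut lists to 6142 peaks, used no flank or 5 kb, required a reciprocal overlap of 50%, asked for 2 of 3 samples, used a replicate block, or left out each sample.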

Additional observations from a re-analysis of the deposited data

How the results depend on the processing

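The count of members with groups apart in covered length, 0 of 9, became 1 when only peaks of −log10 q 10 or more were kept (hpo; 3.2% of all tested loci), 2 when every list was cut to 6142 peaks (hpo and sd; 7.98%), 2 with no flank (hpo and sd; 4.13%) and 1 per Mb of list (hpo). Leaving out 1 sample gave 0 to 7 for covered length (7 without control A, 3 without H1 RNAi B), 0 to 2 for peak number and 0 to 1 for regions called in one group alone, which was 2 with 2 of 3 samples. A flank of 5 kb and reciprocal overlap of 50% moved none of these counts past 1.5 times, but with the latter 14 of 53 member regions (26.4%) were called in all samples, against 21 of 32. Regions called in all samples numbered 10 of 25 under the stricter q, in place of 21 of 32. The share of all regions called in all samples was not computed under the stricter q or the reciprocal overlap. These counts therefore do not set the members apart from other regions. Lower regions with groups apart ranged from 6 to 14 of 21 when a sample was left out, against 15 to 74.7% of all. They were 4 of 10 under the stricter q and 5 of 18 in the shortened lists, against 17.8% and 16.3% of all. Regions with summits apart ranged from 4 to 6 of 21 when a sample was left out, against 22.7 to 24.1% of all. Summits were apart in 1 of 10 regions under the stricter q and 1 of 18 in the shortened lists, against 14.9% and 13.8% of all. The causes were not tested. For single members, 193 of the alternative differences moved by at most 1 SD, the larger SD of either group, and 5 by more (yki and ft). The 193 include all differences of the replicate block, which leaves group means unchanged and so could not move them. A move within that SD can still be large, as the values below show. The sign turned for 1 peak number, without H1 RNAi B. Leaving out 1 sample moved covered-length differences by over 1.5 times. Without control A, hpo went from −308 to −467 bp, wts from −461 to −771 bp, yki from −286 to −544 bp, ex from −565 to −923 bp and Diap1 from −1379 to −2294 bp. Without control B they were −186 bp (hpo), −164.5 bp (wts), −32.2 bp (yki), −813 bp (kibra, from −1243) and −822.5 bp (Diap1). Without control C, ft went from −305 to −119.8 bp. Without H1 RNAi A, yki was −494.5 bp, and without H1 RNAi C yki was −142.5 bp, ex −362 bp, Diap1 −914 bp and ds 0 bp (from 43). With the replicate block, hpo, sd and kibra were lower in all 3 pairs in covered length, 3 members of 9, against 19% of tested loci, where the smallest paired exact p is 0.25. The labels do not say what a letter marks, and whether samples of a letter share a batch cannot be decided here. Deviations of the same letter correlated across genes at −0.0514, 0.214 and −0.125 for A, B and C. Those of different letters correlated at −0.202 to 0.238. Depth is unknown, and a peak missing from control A or H1 RNAi A, the shortest lists, does not show closed chromatin.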
